A study of Mus musculus with 2 samples.

Results

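The genes followed here encode the enzymes that write and erase ADP-ribose, namely Parp1, Parp2, Parp3, Parp4, Parp9, Parp10, Parp12, Parp14, the tankyrase gene Tnks and the hydrolase gene Parg. They were chosen by symbol as a family that includes the target of JPI-289, a PARP-1 inhibitor, and all 10 were found among the 32285 genes listed in each library. Single-cell RNA sequencing with a 5' kit was done on postischemic kidney of male C57BL/6 mice aged 9 weeks, with no other genotype given. In the JPI-289 group (n = 1), 100 mg/kg JPI-289 was given intraperitoneally immediately before reperfusion in bilateral renal ischemia-reperfusion, and in the control group (n = 1) saline was given at that moment. Both mice went through the ischemia, and both were sacrificed 24 h after the surgery. With 1 library per group the values compare 2 libraries, no test between the groups was possible, and all intervals are 95% intervals of counting error that leave out the difference between mice.

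PARP enzymes transfer ADP-ribose from NAD+ to proteins. PARP1 and PARP2 bind broken DNA, are activated by it and build long chains of poly(ADP-ribose) that recruit repair proteins, while excess activity of PARP1 drains NAD+ and can kill the cell in a process called parthanatos. PARG cuts the chains, while the last ADP-ribose is removed from the proteins by other enzymes. In the ischemic kidney, the tubule cells that reabsorb most of the filtrate, the proximal tubules (PTs), have a high energy demand and are known for PARP activation. The counts below are RNA molecules, tagged by unique molecular identifiers (UMIs), and do not measure enzyme activity, on which an inhibitor acts.

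The control library held 38328760 UMIs over 326566 barcodes and the JPI-289 library 35548396 over 273265. A total of 3737 control and 5014 JPI-289 cells were kept, with a median of 2063 and 1874 UMIs, and they held 43.5% and 50.2% of the UMIs. Of the kept barcodes, 23 occurred in both libraries. RNA retained in the nucleus differed between the libraries. In counts per 1000000 UMIs (CPM), Neat1 and Malat1, 2 long nuclear RNAs, had 699 and 9499 over all control barcodes and 1438 and 15859 over all JPI-289 barcodes. A cluster led by these 2 genes, which was given no cell type, held 50 control and 298 JPI-289 cells. The 10 genes together had 5703 control and 4836 JPI-289 UMIs, of which 0.701% and 6.93% lay in that cluster.

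The sequences before the start sites of 2 of the genes that sense DNA breaks are shown because they lie in one piece outside annotated exons and because the 2 genes had different profiles over cell types, as described below. They are the 250 bases before the RefSeq start, in build GRCm38.p6, written 5' to 3' on the strand of the gene, and capitals mark matches to the motifs searched. Parp1 (plus strand, chr1:180568641-180568890) held 3 matches to the GC box GGGCGG, read here on the other strand.
Parp1: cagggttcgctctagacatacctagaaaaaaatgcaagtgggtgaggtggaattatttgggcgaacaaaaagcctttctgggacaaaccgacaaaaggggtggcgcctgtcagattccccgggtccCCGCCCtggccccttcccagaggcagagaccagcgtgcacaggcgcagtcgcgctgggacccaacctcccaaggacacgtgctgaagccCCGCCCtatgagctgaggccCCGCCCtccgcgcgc
Parp3 (minus strand, chr9:106476950-106477199) held 1 match to the NRF1 motif and no GC box.
Parp3: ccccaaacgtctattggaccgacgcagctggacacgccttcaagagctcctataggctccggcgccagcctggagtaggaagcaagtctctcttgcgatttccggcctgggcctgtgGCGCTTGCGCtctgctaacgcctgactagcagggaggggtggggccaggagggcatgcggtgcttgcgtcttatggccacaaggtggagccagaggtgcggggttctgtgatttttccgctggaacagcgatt
Both strands were searched in the same windows of 32851 promoters. The GC box was present in 32.7% of them, NRF1 in 3.74%, the ETS motif CCGGAAG in 6.91%, the interferon-stimulated response element in 2.98% and the E2F motif TTTNGCGC in 1.13%. Neither window held the last 3 motifs. These matches are letters and were not related to binding of any factor.

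Over all barcodes, 7 of the 10 genes had a lower level in the JPI-289 library and 3 a higher level, where 58.1% of all measured genes were lower. Parp10 was the only 1 past 2-fold in either direction. Among the 15273 genes with at least 20 UMIs over both libraries, 20.6% were at least 2-fold lower and 7.31% at least 2-fold higher, so 1 of 10 lower and 0 of 10 higher did not exceed these shares. The log2 ratio is that of the JPI-289 level over the control level, and its median was -0.39 for the 10 genes and -0.17 for all genes. In such sums, fewer cells of a type and less RNA per cell cannot be told apart.

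Parp1, the main polymerase of the DNA break response (ENSMUSG00000026496, chromosome 1 from 180568924 to 180601254 in GRCm38 with GENCODE vM21), had 816 control UMIs and 393 JPI-289 UMIs. These were 21.3 CPM (19.9 to 22.8) and 11.1 (9.99 to 12.2), a log2 ratio of -0.94 (-1.12 to -0.77). The 2 intervals did not overlap, and the ratio lay at percentile 21.8 of all measured genes. Parp2, its closest relative, which shares the response to single-strand breaks (chromosome 14 from 50807841 to 50821301), had 439 and 271 UMIs, or 11.5 and 7.62 CPM, a log2 ratio of -0.59 (-0.81 to -0.37). Parp3, a mono-ADP-ribosyltransferase of double-strand break repair (chromosome 9 from 106470322 to 106476949), had 639 and 404 UMIs, or 16.7 and 11.4 CPM, a log2 ratio of -0.55 (-0.74 to -0.37). The genes of all 3 enzymes that respond to DNA breaks thus had lower levels with JPI-289, as did 58.1% of all measured genes. The share of all genes with intervals that do not overlap between the libraries was not computed.

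Parp4 encodes the PARP of the vault particle, a large ribonucleoprotein (chromosome 14 from 56575619 to 56659794). It was 1 of the 3 genes with a higher level, with 639 control UMIs (16.7 CPM) and 789 JPI-289 UMIs (22.2 CPM), a log2 ratio of 0.41 (0.26 to 0.57). Over kept cells alone the ratio was 0.22 for Parp4 and -1.09 for Parp1. When the classes of these kept cells were given the same share of UMIs in both libraries, the ratios were 0.084 and -0.98.

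The genes linked to the interferon response differed among themselves. Parp10, a mono-ADP-ribosyltransferase (chromosome 15 from 76231174 to 76243441), had 479 control UMIs, or 12.5 CPM (11.4 to 13.7), and 179 JPI-289 UMIs, or 5.04 CPM (4.32 to 5.83). This was the lowest ratio of the 10, -1.31 (-1.57 to -1.06). Parp14, a macrodomain protein that acts in cytokine signalling (chromosome 16 from 35832874 to 35871544), had 277 and 173 UMIs and a log2 ratio of -0.57 (-0.85 to -0.29). Parp9, which works with the ubiquitin ligase Dtx3l (chromosome 16 from 35938470 to 35972605), had 322 and 254 UMIs and a ratio of -0.23 with an interval that reached 0 (-0.48 to 0.0082). Parp12, a zinc-finger member with antiviral activity (chromosome 6 from 39086410 to 39118349), had 258 and 239 UMIs. Its levels of 6.73 and 6.72 CPM could not be told apart (log2 ratio -0.0015, from -0.26 to 0.26).

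Tnks and Parg had higher levels with JPI-289. Tnks encodes tankyrase 1, a polymerase that marks axin and telomere proteins (chromosome 8 from 34826460 to 34965690). It had 992 control UMIs (25.9 CPM) and 1149 JPI-289 UMIs (32.3 CPM), a log2 ratio of 0.32 (0.20 to 0.44). Parg, the hydrolase of the chains (chromosome 14 from 32201949 to 32297550), had 842 and 985 UMIs, or 22.0 and 27.7 CPM, a log2 ratio of 0.33 (0.20 to 0.47). Over all kept cells the log2 ratio was 0.34 for Parg, 0.35 for Tnks and 0.22 for Parp4. In the cluster led by Neat1 and Malat1, Parg had 4 control and 105 JPI-289 UMIs and Tnks 9 and 116. Over kept cells without that cluster, the log2 ratio was 0.080 (-0.13 to 0.29) for Parg, 0.15 (-0.040 to 0.33) for Tnks and 0.17 (-0.042 to 0.38) for Parp4, with all 3 intervals including 0. In the same cells Parp1 had a ratio of -1.12 (-1.41 to -0.85) and Parp10 -1.25 (-1.59 to -0.92).

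**Figure D1:**
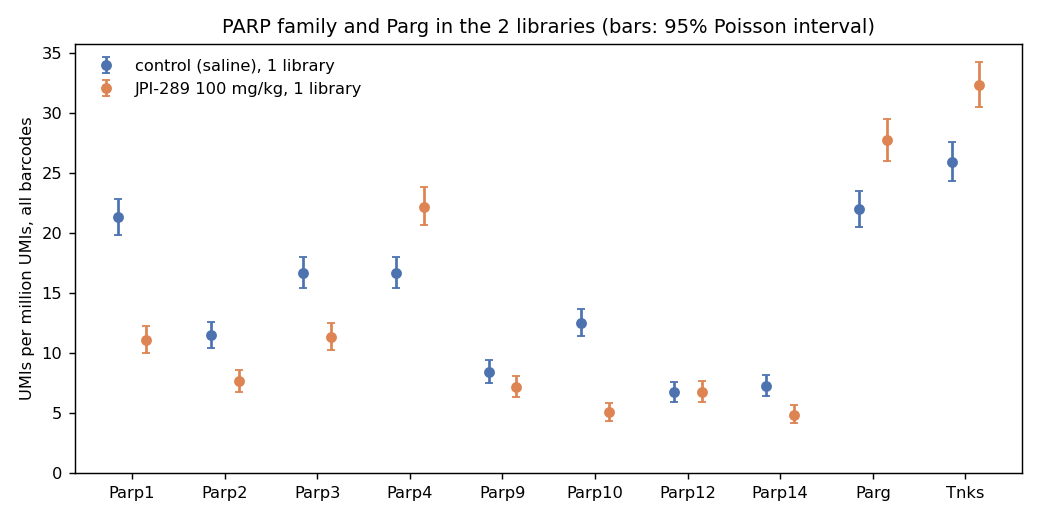
CPM over all barcodes (vertical axis) for each of the 10 genes (horizontal axis), with the control library in blue and the JPI-289 library in orange, 1 library each. Points are levels and bars their 95% Poisson intervals. The levels are 21.3 against 11.1 for Parp1, 12.5 against 5.04 for Parp10 and 6.73 against 6.72 for Parp12.

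Among kept cells alone, Parp1 (334 and 167 UMIs, log2 ratio -1.09) and Parp10 (257 and 118 UMIs, -1.22) were both past 2-fold lower, against 21.1% of all genes lower and 5.66% higher by that much. The barcodes that were not called as cells, which hold free RNA and debris, gave ratios in the same direction for both genes. There Parp1 had 472 and 218 UMIs (log2 ratio -0.84, from -1.08 to -0.61) and Parp10 211 and 55 (-1.66, from -2.12 to -1.23). In barcodes under 100 UMIs, taken as free RNA alone, only Parp4 (12 and 8 UMIs) and Parg (13 and 15) reached 20 UMIs, and neither was past 2-fold, against 13.7% of all genes lower and 9.25% higher.

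Some of the counts share a locus with another gene. Exons of Parp10 overlap Plec on the same strand, and those of Parp3 and Parp9 overlap Rrp9 and Dtx3l on the opposite strand. The strand cannot separate reads of the exons that Parp10 and Plec share. For Parp3 and Parp9, whether counting used the strand is not given in the sources used here. All 3 genes are therefore less certain. Plec had 3948 and 3354 UMIs (log2 ratio -0.13), Rrp9 400 and 439 (0.24) and Dtx3l 205 and 148 (-0.36). The part of reads in the shared exons was not tested.

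The cells were next sorted into classes by marker genes, and the UMIs of each class were summed per library. PT-like cells were the largest class, with 1772 control and 1626 JPI-289 cells and 8088962 and 7320272 UMIs. Every cluster of these cells came from 1 library for over 97% of its cells, so a subtype of PT and a library cannot be told apart here. Krt20, a marker of injured PT, was among the leading genes of 2 clusters, both of the JPI-289 library. One control cluster of 233 cells, led by the PT transporter genes Slc5a12 and Slc13a1, was high in Neat1 (17286 CPM), and no JPI-289 cell was placed in it.

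In PT-like cells, 9 of the 10 genes had at least 20 UMIs, and 7 of the 9 had a lower level with JPI-289. Of all measured genes there, 58.0% were lower. Parp10 was again past 2-fold lower, and of all 11302 measured genes 23.5% were that much lower and 9.1% that much higher. Parp10 had 175 UMIs or 21.6 CPM (18.5 to 25.1) in control PT-like cells and 33 or 4.51 (3.10 to 6.33) in JPI-289 ones, a log2 ratio of -2.25 (-2.85 to -1.72). PT-like cells held 68.1% of the Parp10 UMIs of kept control cells and 28.0% of those of kept JPI-289 cells, while their share of all UMIs was 48.5% and 41.0%. Plec, which overlaps it, had 294 and 329 UMIs in the same cells (log2 ratio 0.31).

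Parp1 had 154 UMIs or 19.0 CPM (16.2 to 22.3) in control PT-like cells and 92 or 12.6 (10.1 to 15.4) in JPI-289 ones. The log2 ratio was -0.60 (-0.99 to -0.22). The median of all genes in these cells was -0.19, and the ratio of Parp1 lay at percentile 34.9 of them. Parp2 was just short of 2-fold, with 80 and 36 UMIs and a ratio of -0.997 (-1.62 to -0.42). Parp3 had 182 and 142 UMIs and a ratio of -0.21 (-0.54 to 0.11), and Parp9 had 55 and 32 (-0.63, from -1.31 to 0.017). Parp4, with 102 and 93 UMIs (0.011, from -0.41 to 0.43), and Parp12, with 23 and 24 (0.20, from -0.68 to 1.10), could not be told apart between the libraries. Parp14 had only 11 and 3 UMIs in PT-like cells.

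Tnks and Parg had lower levels in JPI-289 PT-like cells, the opposite direction to that over all barcodes. Tnks had 207 and 116 UMIs (-0.69, from -1.03 to -0.36) and Parg 180 and 120 (-0.44, from -0.79 to -0.10). Neat1 and Malat1 were also lower in these sums, with 2013 and 18767 CPM in control and 537 and 5606 in JPI-289 PT-like cells. These lower sums rested on the control cluster high in Neat1, which had 17286 and 153058 CPM. The other 2 control clusters had 22.0 and 573 CPM for Neat1 and 586 and 6409 for Malat1. In the JPI-289 clusters Neat1 had 80.1, 881 and 611 CPM and Malat1 2228, 8180 and 6126. The control cluster high in Neat1 held 60 of the Tnks and 64 of the Parg UMIs, at 77.6 and 82.8 CPM, whereas the other 2 control clusters had 19.3 and 21.6 CPM for Tnks and 13.2 and 20.7 for Parg. Without that cluster, which left 1539 control cells, the log2 ratio was 0.048 (-0.33 to 0.43) for Parg and -0.34 (-0.71 to 0.019) for Tnks, and both intervals included 0. It stayed at -2.21 (-2.81 to -1.67) for Parp10 and -0.61 (-1.01 to -0.23) for Parp1.

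The clusters of 1 library come from 1 mouse and are not replicates. Parp10 had 23.8, 19.9 and 27.2 CPM in the 3 control clusters and 2.73, 4.73 and 5.74 in the 3 JPI-289 clusters. The Poisson intervals of the control clusters lay above all those of the JPI-289 clusters. The share of all genes with intervals placed in this way was not computed. For Parp1 the levels were 21.6, 18.3 and 16.8 in the control clusters and 11.4, 11.2 and 14.7 in the JPI-289 clusters. All 3 control values were higher, but their intervals overlapped those of the JPI-289 clusters.

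**Figure D2:**
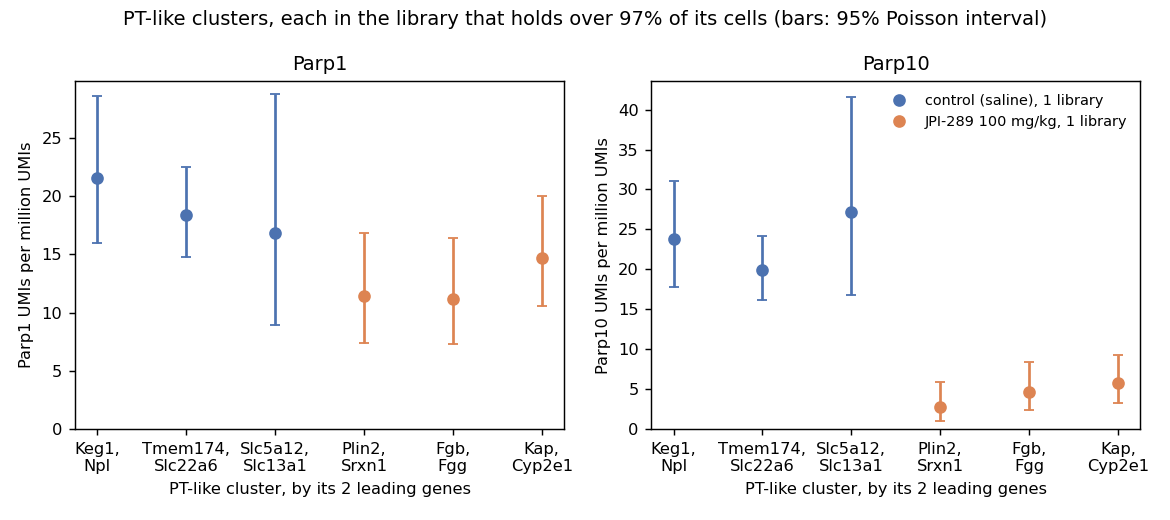
CPM (vertical axes) of Parp1 (left) and Parp10 (right) in 6 PT-like clusters, named by their 2 leading genes (horizontal axes) and shown in the library that holds over 97% of their cells. Points are levels and bars 95% Poisson intervals; Parp10 lies between 19.9 and 27.2 in the control clusters and between 2.73 and 5.74 in the JPI-289 clusters.

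Endothelial-like cells (515 control and 568 JPI-289 cells, 2006075 and 1716190 UMIs) had all 10 genes above 20 UMIs. Of these, 2 were past 2-fold lower and 0 higher, against 18.8% and 5.27% of all genes. Parp1 had 26 control UMIs (13.0 CPM) and 7 JPI-289 UMIs (4.08 CPM), a log2 ratio of -1.60 (-3.12 to -0.43). Parp2 had 45 and 15 UMIs, or 22.4 and 8.74 CPM (-1.33, from -2.31 to -0.49, and -0.75 with each cell weighted equally). Parp14 had 94 UMIs or 46.9 CPM in control cells and 46 or 26.8 in JPI-289 cells (-0.80, from -1.35 to -0.28). These were the highest Parp14 levels of any class of at least 100000 UMIs in each library, and this class held 51.6% of the Parp14 UMIs of kept control cells with 12.0% of all UMIs. In the JPI-289 library the macrophage level of 24.7 was within the interval of the endothelial one (19.6 to 35.8).

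The endothelial-like cells of the 2 libraries did not come from the same clusters. A cluster led by Plvap held 185 control and 2 JPI-289 cells, and one led by Igfbp3 and Edn1 held 94 and 310. Parp14 had 63.4 CPM in the control cells of the Plvap cluster. In the Igfbp3 cluster its level was 32.6 in control and 29.6 in JPI-289 cells (24 and 43 UMIs). Parp12, with 65 and 37 UMIs over the class (-0.58, from -1.21 to 0.016), had 43.7 CPM in the Plvap cluster and 23.1 and 22.1 in the Igfbp3 cluster. In the Igfbp3 cluster the levels of Parp14 and Parp12 were thus close between the libraries. Parp1 had 10 and 5 UMIs there, 13.6 and 3.45 CPM, short of the 20 UMIs needed to count as measured. The other endothelial cluster, led by Esm1 and Heg1 (236 and 256 cells), had few UMIs, 12 and 3 for Parp14, 8 and 5 for Parp12 and 6 and 2 for Parp1. The other endothelial values were higher with JPI-289 for Parp4 (62 and 77 UMIs, 0.54, from 0.036 to 1.04) and Tnks (56 and 76 UMIs, 0.66, from 0.15 to 1.19). Intervals included 0 for Parg (45 and 53 UMIs, 0.46), Parp3 (12 and 12, 0.23), Parp9 (38 and 30, -0.11) and Parp10 (32 and 17, -0.67).

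Macrophage or monocyte-like cells (201 and 301 cells) had the highest Parp1 level in the control library among classes of at least 100000 UMIs in both libraries, 46 UMIs or 38.4 CPM (28.1 to 51.2). The next of these classes, intercalated-like cells, had 34.6 with an interval of 13.9 to 71.3 from 7 UMIs, so the order of these 2 is not fixed. In the JPI-289 library macrophage or monocyte-like cells had 14 Parp1 UMIs or 10.2 CPM (5.57 to 17.1), a log2 ratio of -1.88 (-2.89 to -1.03) at percentile 4.21 of all genes there. Both clusters of the class went the same way. The cluster led by MHC class II genes had 27 and 8 Parp1 UMIs, or 49.3 and 15.0 CPM, and the cluster led by Fn1 and Arg1 had 19 and 6, or 29.2 and 7.12.

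Parp10 was the other gene past 2-fold lower in this class, with 15 and 6 UMIs (-1.45, from -3.17 to -0.073, and -0.94 with each cell weighted equally), so 2 of 10 genes were lower by that much against 15.4% of all genes, and 0 of 10 higher against 8.9%. Parp4 was also lower, with 37 and 23 UMIs (-0.87, from -1.70 to -0.096). Tnks had 38 and 71 UMIs and a higher level with JPI-289 (0.69, from 0.12 to 1.31). Parp2 (27 and 18 UMIs), Parp3 (18 and 15), Parp9 (21 and 21), Parp12 (18 and 25), Parp14 (34 and 34) and Parg (26 and 33) had log2 ratios from -0.77 to 0.26 with intervals that included 0.

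**Figure D3:**
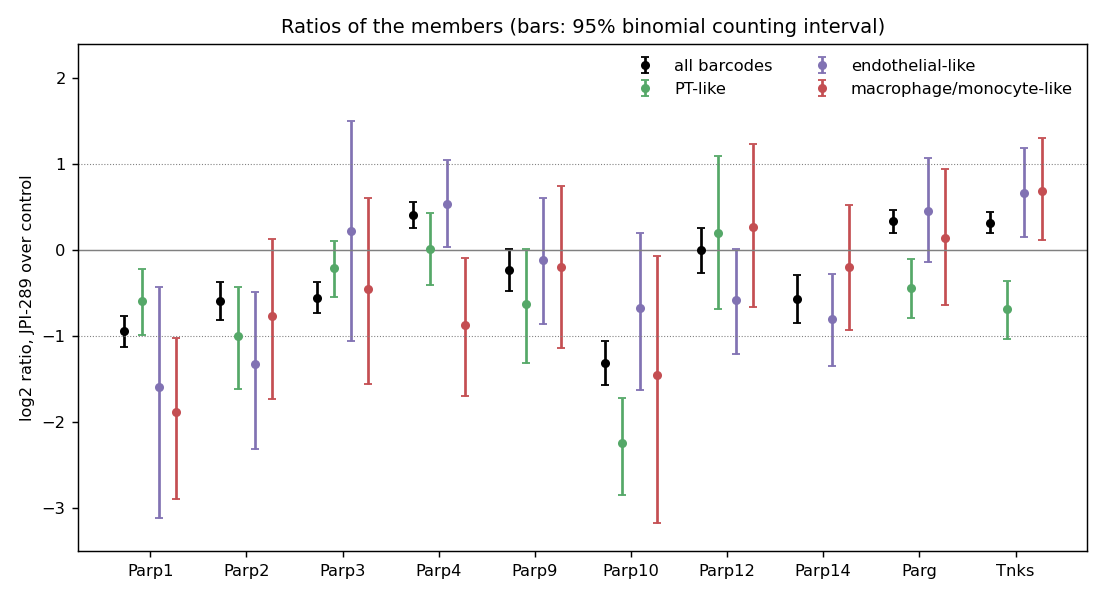
Log2 ratio of JPI-289 over control (vertical axis) for the 10 genes (horizontal axis) over all barcodes and in PT-like, endothelial-like and macrophage or monocyte-like cells. Points are ratios, bars 95% binomial counting intervals and dotted lines the 2-fold limits; Parp14 in PT-like cells is left out for its 14 UMIs. Parp1 lies below 0 in all 4 sets, from -0.60 to -1.88, and Tnks below 0 in PT-like cells and above 0 in the other 3 sets.

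In the other classes the counts were small. Principal-like cells of the collecting duct (81 and 382 cells) had 7 measured genes, of which 1 was past 2-fold lower and 0 higher, against 14% and 8.45% of all genes. Parp1 had 20 control UMIs (20.3 CPM) and 9 JPI-289 UMIs (6.68 CPM) there (-1.56, from -2.92 to -0.40, and -0.90 with each cell weighted equally). Tnks had 26 and 66 UMIs and a higher level (0.88, from 0.22 to 1.61). Parp4 (24 and 51 UMIs, 0.62), Parg (31 and 40, -0.087), Parp2 (14 and 15, -0.35), Parp9 (19 and 14, -0.88) and Parp12 (18 and 16, -0.61) had intervals that included 0.

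Cells of the thick ascending limb (280 and 405 cells) had 7 measured genes, of which 1 was past 2-fold higher and 0 lower, against 8.59% and 10.5% of all genes. This was Parp9, with 5 and 19 UMIs (1.34, from -0.029 to 3.22, and 0.36 to 0.63 under 4 of 11 alternatives). Parp1 had 12 and 11 UMIs (-0.61, from -1.93 to 0.70), and the intervals of Parp3 (9 and 14 UMIs, 0.12), Parp4 (26 and 40, 0.13), Parp12 (10 and 20, 0.48), Parg (18 and 35, 0.45) and Tnks (26 and 36, -0.024) included 0 as well. In distal convoluted and connecting tubule cells, Parp4 (18 and 20 UMIs, -0.13), Parp12 (7 and 17, 0.95), Parg (9 and 18, 0.68) and Tnks (12 and 19, 0.36) likewise did not differ beyond counting error.

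Stromal cells, a class of fibroblast and mural markers (159 and 101 cells), had 6 measured genes, with 1 past 2-fold lower against 13.8% of all genes and 0 higher against 11.8%. Parp3 had 52 control UMIs, or 60.2 CPM (45.0 to 79.0), the highest level of this gene among classes of at least 100000 UMIs in both libraries, and 5 JPI-289 UMIs, or 12.7 CPM (4.14 to 29.7) (-2.12, from -3.92 to -0.93, and -0.87 with each cell weighted equally). PT-like cells, the next of these classes for Parp3 in the control library, had 22.5 CPM (19.3 to 26.0), below the stromal interval. In the JPI-289 library the PT-like level of 19.4 lay within the stromal interval. Parp1 in stromal cells had 17 and 7 UMIs, 19.7 and 17.8 CPM (-0.085, from -1.66 to 1.20). Parp2 (17 and 8 UMIs, 0.095), Parp4 (18 and 13, 0.68), Parg (19 and 17, 0.98) and Tnks (37 and 24, 0.52) had intervals that included 0.

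Neutrophil-like cells (196 and 652 cells) were near the lower limit of detection for Parp1. Of 434980 UMIs in control neutrophils 0 were Parp1, which allows up to 6.90 CPM at 3 counts and 8.48 as the upper Poisson limit, and of 1609656 in JPI-289 neutrophils 3 were, or 1.86 CPM (0.38 to 5.45). Parp4 had 22 UMIs or 50.6 CPM in control neutrophils and 35 or 21.7 in JPI-289 neutrophils, a log2 ratio of -1.23 (-2.03 to -0.38). It was the 1 gene of 5 measured that was past 2-fold lower, against 10.5% of all genes, and 0 were higher against 11.5%. Parp10 (4 and 27 UMIs, 0.72), Parp14 (3 and 21, 0.73), Parg (10 and 49, 0.35) and Tnks (6 and 45, 0.92) had intervals that included 0. Red blood cells, which should hold little of any of these RNAs, had 1 control and 5 JPI-289 UMIs of all 10 genes together, out of 141808 and 226607.

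**Figure D4:**
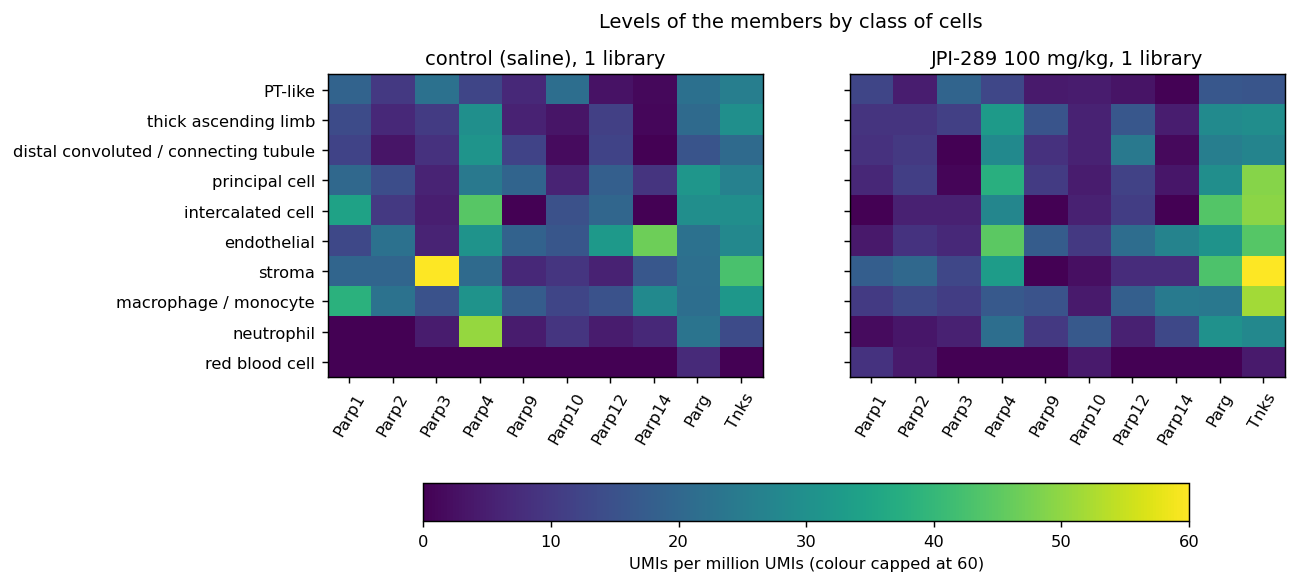
Level of each of the 10 genes (columns) in each class of at least 100000 UMIs in both libraries (rows), for the control library (left) and the JPI-289 library (right). The colour gives CPM and is capped at 60. The control panel shows Parp3 highest in stroma (60.2), Parp14 in endothelial-like cells (46.9) and Parp4 in neutrophils (50.6). For Parp4 the order is not fixed, as the neutrophil interval (31.7 to 76.6) overlaps that of intercalated-like cells (20.4 to 84.5). In the JPI-289 panel Parp4 is highest in endothelial-like cells (44.9).

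Across classes, Parp1 was measured with at least 20 UMIs in 7 classes. By the chosen settings its level was lower in the JPI-289 library in all 7. The counting interval lay below 0 in 4 of them, namely PT-like, endothelial-like, macrophage or monocyte-like and principal-like cells. The other 3 were thick ascending limb and stromal cells, given above, and a urothelial class of 15 control and 3 JPI-289 cells with 23 and 0 Parp1 UMIs (45.6 CPM in the control), where the Poisson intervals overlapped. The ratio of Parp1 kept its sign in 8 of 9 alternatives in the thick ascending limb, where the highest was 0.47. In stromal cells it kept its sign in 10 of 11, with a highest of 0.013. Of all measured genes, 58.0% were lower with JPI-289 in PT-like, 58.9% in endothelial-like, 51.5% in macrophage or monocyte-like and 53.5% in principal-like cells. In the thick ascending limb 52.1% were lower, and in stromal cells 50.3%. Parp10 was lower in 3 of 4 classes and Parp2 in 4 of 5, each with the interval below 0 in 2 classes. Tnks and Parg were each higher in 6 of 8. The interval lay above 0 in 3 classes for Tnks and in 0 for Parg. For both genes it lay below 0 in 1 class, PT-like cells. The share of all genes with an interval off 0 was not computed in any class. For the urothelial class the share of lower genes was not computed either. All classes come from the same libraries, so they are not separate evidence.

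**Figure D5:**
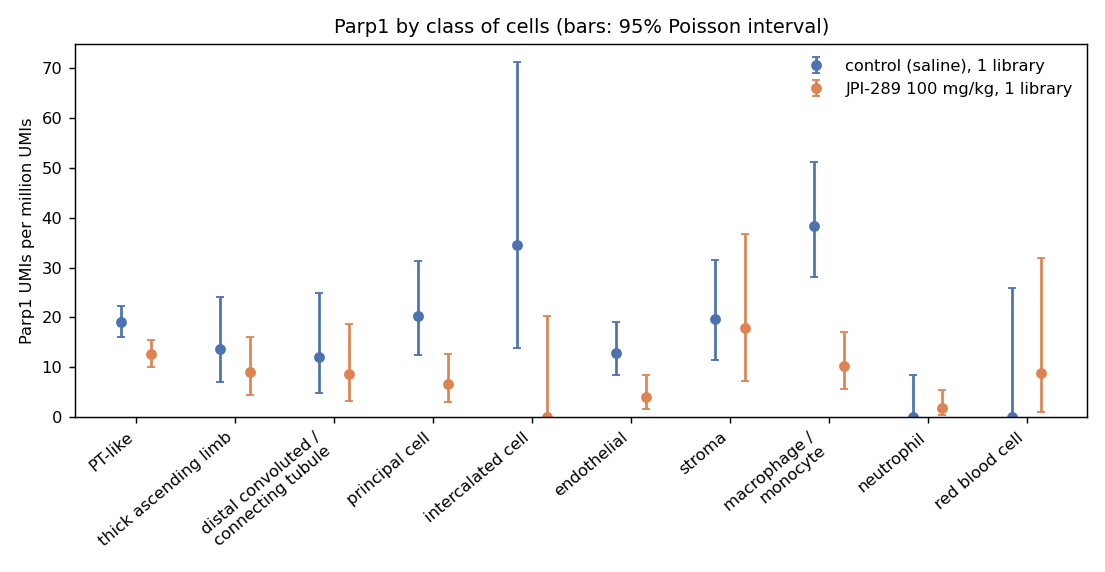
Parp1 CPM (vertical axis) in the classes of at least 100000 UMIs in both libraries (horizontal axis), control in blue and JPI-289 in orange, with 95% Poisson intervals as bars. The control level is highest in macrophage or monocyte-like cells (38.4), where the JPI-289 level is 10.2, and the levels meet in stroma (19.7 and 17.8).

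The genes whose levels over classes were most like those of these genes were sought among 10211 genes, over 22 pairs of a class and a library, each of at least 100000 UMIs. Parp1 was most like Fbxl4, Kat2a and Gpn1, with Pearson correlations of 0.87, 0.87 and 0.86. Parp3 was most like Mrpl18 (0.81), Eif5a and Nars, Parp4 like BC005624 (0.95) and Phrf1, Parg like Fam13b (0.98) and Trip11, and Tnks like Gpatch8, Btbd7 and Copb1 (0.96 each). The pairs share 2 libraries and differ in depth, so these values are a description. Over the same 22 pairs the correlation with Neat1 was 0.82 for Tnks (Spearman 0.38), 0.70 for Parp4 (0.31), 0.50 for Parg (0.52), 0.44 for Parp10 (0.028) and 0.28 for Parp1 (-0.018). It was 0.57 for Parp12 (0.21), 0.40 for Parp2 (-0.062), 0.29 for Parp3 (-0.024), 0.17 for Parp9 (-0.18) and -0.051 for Parp14 (-0.42). The part of nuclear RNA in the differences between the libraries was not tested beyond the sums without the clusters named above, each left out alone.

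The rest of the PARP family was described by a list of 7 genes, all measured, of which 1 was past 2-fold lower and 1 past 2-fold higher over all barcodes, against 20.6% and 7.31% of all genes. The list median was 0.055 against -0.17 for all genes. Parp11, a mono-ADP-ribosyltransferase, had 122 and 49 UMIs (-1.20) and Zc3hav1, the zinc-finger antiviral protein that lacks catalytic activity, 643 and 1231 (1.05). Tnks2, the second tankyrase, had 3444 and 3319 UMIs (0.055) and Tiparp, a target of the aryl hydrocarbon receptor, 1383 and 2033 (0.66). In PT-like cells Tnks2 had 733 and 460 UMIs (-0.53, from -0.70 to -0.36), the same direction as Tnks there. Without the control PT-like cluster high in Neat1 the interval of Tnks included 0, and Tnks2 was not computed.

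Other erasers and readers of ADP-ribose, a list of 12 measured genes, had a median of -0.17 over all barcodes, against -0.17 for all genes. Of the 12, 1 gene was past 2-fold lower and 0 higher, against 20.6% and 7.31% of all genes. Nudt5, which breaks down free ADP-ribose, had 934 and 392 UMIs (-1.14). H2afy, a histone variant with a domain that binds ADP-ribose, had 3343 and 3234 (0.061), and Oard1, which removes the last ADP-ribose from proteins, had 1699 and 1254 (-0.33). In endothelial-like cells 9 of the 11 measured genes of this list were lower, 3 past 2-fold, and 2 higher. Of all genes there, 58.9% were lower and 18.8% past 2-fold lower. Of 8 partners of PARP1 in single-strand break repair, 0 passed 2-fold in either direction over all barcodes or in PT-like cells. In each, 4 were lower and 4 higher. Of all genes in PT-like cells, 23.5% were past 2-fold lower and 9.1% past 2-fold higher. In endothelial-like cells 7 of the 8 partners were lower, 2 past 2-fold, and 1 higher. Over all barcodes Hpf1, the factor that directs PARP1 to serine residues, had 1127 and 755 UMIs (-0.47). Pcna, the sliding clamp of DNA synthesis, had 1438 and 1712 (0.36).

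Among 6 tankyrase partners, 2 were past 2-fold higher and 0 lower over all barcodes, against 7.31% and 20.6% of all genes. Axin1, the scaffold that tankyrase marks for degradation, had 570 and 1415 UMIs (1.42, from 1.28 to 1.56), and Rnf146, the ubiquitin ligase that reads this mark, had 829 and 1920 (1.32, from 1.20 to 1.44). In PT-like cells Axin1 had 101 and 234 UMIs (1.35, from 1.01 to 1.71) and Rnf146 188 and 317 (0.90, from 0.63 to 1.17). Numa1, a spindle protein that binds tankyrase, had 1432 and 1051 UMIs over all barcodes (-0.34).

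The interferon list around PARP9 and PARP14 held 17 measured genes, of which 13 were lower with JPI-289 over all barcodes, 4 of them past 2-fold, and 4 higher, 1 of them past 2-fold. Of all genes 58.1% were lower, 20.6% past 2-fold lower and 7.31% past 2-fold higher, so the list's counts past 2-fold over all barcodes were near these shares. Oas1a, an enzyme that senses viral RNA, had 95 and 19 UMIs (-2.18), Usp18 92 and 29 (-1.54) and Ifit3 215 and 95 (-1.07), while Ifit1 had 114 and 264 (1.32). Bst2 had 1230 and 745 UMIs (-0.61) and Irf1 971 and 941 (0.063). In PT-like cells all 10 measured genes of the list were lower, 6 past 2-fold, with a list median of -1.35. Of all genes there, 58.0% were lower and 23.5% past 2-fold lower, with a median of -0.19. Irf1, a transcription factor of the interferon response, had 171 and 22 UMIs there (-2.79, from -3.53 to -2.17). In endothelial-like cells all 16 measured genes were lower, 6 past 2-fold, with a median of -0.80, against 58.9% lower, 18.8% past 2-fold lower and a median of -0.18 for all genes. These sums join unlike clusters, of which the one led by Plvap held 185 control and 2 JPI-289 cells. None of the gene lists was computed per cluster, so in either class a difference in subtype and in level cannot be told apart.

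Of 7 measured genes of parthanatos and NAD+ consumption, 4 were lower over all barcodes, 2 of them past 2-fold, and 3 higher, 0 of them past 2-fold. Of all genes 58.1% were lower, 20.6% past 2-fold lower and 7.31% past 2-fold higher. The list median was -0.099, against -0.17 for all genes. Aifm1, the mitochondrial protein that enters the nucleus in parthanatos, had 1714 and 763 UMIs (-1.06, from -1.18 to -0.94), and Mif, its partner nuclease, 28258 and 24477 (-0.099). Sirt3, the mitochondrial NAD+-dependent deacetylase, had 1301 and 317 UMIs (-1.93, from -2.11 to -1.75), and in PT-like cells 555 and 116 (-2.11, from -2.42 to -1.82). In PT-like cells 3 of the 5 measured genes of the list were higher and 2 lower, where 42.0% of all genes were higher. The list median there was 0.17, against -0.19 for all genes.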

How the data were processed

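The libraries were made with the Chromium Single Cell 5' kit, and what the authors deposited are unfiltered whole-number counts of UMIs for each gene in all barcodes, aligned to mm10 with Cell Ranger (version 5.0.1 in the submitters' processing notes; the file headers name another version). No cells had been called or filtered in the files. The public normal kidneys that the study integrated were not used here.

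Cells were called by total UMIs (above 1 / 10 of the 99th percentile among the top 3000 barcodes) and then, from 500 UMIs, against the profile of barcodes ranked 45000 to 90000 (10000 simulations, false discovery rate 0.01). Barcodes over 50% mitochondrial UMIs were left out, 538 control and 392 JPI-289. Clustering used 2000 variable genes, none of them one of the 10 genes, 30 components, 20 neighbours and Leiden resolution 1 (scanpy 1.11.5, numpy 2.4.6, leidenalg 0.10.2, scipy 1.17.1, Python 3.11.15). Scrublet marked 2 of 8751 cells and so did not work, and doublets remain. Of 25 clusters, 2 stayed unnamed. A cluster was named from marker lists where the mean log2 ratio of its leading list reached 0.75 and at least 3 markers were detected, and where, for scores below 2, the 10 leading genes held a marker. Leaving the cluster led by Neat1 and Malat1 unnamed and joining fibroblast and mural markers into stroma were decided after the clusters were seen. The genes and lists were chosen with earlier results of these data known.

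UMIs were summed per class and library and given as CPM, counts per 1000000 UMIs of the barcodes summed. Log2 ratios (JPI-289 over control) had 0.5 UMIs added to each sum, with exact binomial intervals at 95%, and levels had exact Poisson intervals. PCR duplicates were removed by UMIs, and intervals cover counting error only. A count of 0 was bounded at 3 counts. Values past 2-fold needed at least 20 UMIs over both libraries. The genes named are the 10 genes, in each list the genes past 2-fold over all barcodes and the 2 with most UMIs, and for genes with at least 500 UMIs in kept cells the 3 most alike of at least 200 UMIs; some further values in PT-like cells and of genes that overlap were chosen after they were seen. Values of some genes that this rule names are not reported here. Classes of at least 100000 UMIs entered the likeness. Steps were tested on simulated data. Coordinates are from GENCODE vM21 and RefSeq on GRCm38; promoters were matched by symbol. Alternatives covered cell calling, filters, clustering, scaling, free RNA and cell weights.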

Additional observations from a re-analysis of the deposited data

Results flagged for a closer look

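In 5 cases the counting intervals of the log2 ratio between the libraries lay on opposite sides of 0 in 2 classes of cells. Only the 10 genes were searched for such cases, and the share of all genes that show them was not computed. The cases are therefore not a trait particular to these genes. None of these differences between classes was tested, since each rests on 1 library per group. For Tnks the ratio was -0.69 in PT-like cells, and it was higher by 1.35 in endothelial-like, by 1.38 in macrophage or monocyte-like and by 1.57 in principal-like cells. Without the control PT-like cluster high in Neat1 the ratio of Tnks in PT-like cells was -0.34 with an interval from -0.71 to 0.019, which no longer excludes 0. For Parp4 the ratio in endothelial-like cells, 0.54, was higher by 1.41 than in macrophage or monocyte-like cells and by 1.77 than in neutrophil-like cells.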

How the results depend on the processing

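The median log2 ratio of the 10 genes over all barcodes kept its sign except in barcodes under 100 UMIs, where it was 0.18 on 2 measured genes. The number of genes past 2-fold lower over all barcodes, 1 by the chosen settings, was 2 in kept cells, 2 in kept cells without the cluster led by Neat1 and Malat1 and 0 in barcodes under 100 UMIs. The log2 ratio of Parp1 over all barcodes was -1.12 in kept cells without that cluster, an alternative chosen after seeing the data. In PT-like cells the number past 2-fold lower, 1, was 2 when scaled to nuclear UMIs, 2 with at most 20% mitochondrial UMIs, 2 without the 5% highest doublet scores, 2 with each cell weighted equally and 2 in clusters without leading injury markers (1750 control and 347 JPI-289 cells). In each of these 5, Parp2 joined Parp10. The ratio of Parp1 in PT-like cells ranged from -0.83 to -0.41 and that of Parp10 from -2.60 to -2.04 over 13 alternatives. Parg in PT-like cells was 0.044 at resolution 0.5 and 0.048 without the cluster high in Neat1, which was also chosen after seeing the data, but -0.99 with each cell weighted equally and -0.80 in clusters without leading injury markers. Parp3 there was 0.19 and -0.94 under these last 2. In other classes, equal cell weights took below 2-fold Parp2 in endothelial-like (-0.75), Parp10 in macrophage or monocyte-like (-0.94), Parp1 in principal-like (-0.90) and Parp3 in stromal cells (-0.87). Parp9 in the thick ascending limb fell short of 2-fold with equal cell weights (0.36), the higher UMI minimum per cell (0.57), at most 20% mitochondrial UMIs (0.42) and resolution 0.5 (0.63). Of 677 further values of single genes, 23 lay outside the counting interval, and 40 had the other sign, 0 of these for a value past 2-fold by the chosen settings. No paired analysis was possible because each group has 1 library, and for the same reason no library could be left out. The cause of these shifts was not tested. Counts under 20 UMIs in the smaller classes limit what could be seen there.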
